A study of Rattus norvegicus with 64 samples.

Results

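Voltage-gated calcium channels were followed through the postnatal development of the rat entorhinal cortex by the RNA of 10 subunit genes. Of these, 8 encode pore-forming α1 subunits (Cacna1a, Cacna1b, Cacna1c, Cacna1d, Cacna1e, Cacna1g, Cacna1h and Cacna1i) and 2 encode auxiliary α2δ subunits (Cacna2d1 and Cacna2d3). They were chosen by name, with earlier results of these data known, from the 17260 genes listed in each count table. All 10 passed the filter on low counts, together with 12521 genes in all.

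The α1 subunit forms the pore, senses the voltage and decides the class of the current. Cacna1a carries the P/Q-type current and Cacna1b the N-type current, both of which trigger transmitter release at central synapses, and Cacna1e carries the R-type current. Cacna1c and Cacna1d carry L-type currents that couple activity in cell bodies and dendrites to gene transcription, whereas Cacna1g, Cacna1h and Cacna1i carry T-type currents that open close to rest and take part in burst firing. The α2δ subunits bind the high-voltage-activated channels from outside the membrane and promote their delivery to the cell surface and to terminals, and Cacna2d1 encodes the main target of gabapentin.

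Total RNA depleted of ribosomal RNA came from Long Evans rats, with no treatment or genotype separating the groups. Slices were microdissected into layer II (LII) and the deeper layers III to VI (LDeep) of the medial (MEC) and the lateral (LEC) entorhinal cortex at postnatal days 2, 9, 23 and 45 (P2, P9, P23 and P45). Each of the 16 groups held 3 (P23), 4 (P9 or P45) or 5 (P2) samples, 64 altogether. The study calls the samples biological replicates. For its miRNA samples an age-specific number marks LII and LDeep tissue of 1 rat, and the labels do not say whether the replicate numbers used here mark rats in the same way. The p-values treat the samples as unpaired, and values with the replicate number as a block are given where a call differs. Values are CPM, the read counts scaled to library sizes that were themselves corrected by TMM. Differences are log2 fold changes (LFC) with their standard error (SE) from one edgeR quasi-likelihood fit over all samples, and a gene was called when its Benjamini-Hochberg (BH) adjusted p was under 0.05. In dissected tissue, fewer cells of a type and less RNA per cell cannot be told apart.

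Libraries held between 3894334 and 11439143 counts in genes, with a median of 7569157.5. Of the 64 libraries, 5 stood apart, since their log2 CPM correlated under 0.97 with the median of the rest of their group. They were MEC LII P2 replicates 1 and 3, MEC LDeep P2 replicates 1 and 4, and LEC LDeep P45 replicate 4. The library labelled MEC LII P2 replicate 1 went against its tissue, because its summed forebrain markers reached 48.0 CPM, whereas the other 4 libraries of that group lay between 339 and 509 CPM, and Zic4 stood at 242 CPM in it. The library labelled MEC LDeep P2 replicate 1 went against its layer, with 717 CPM of Reln, a layer II marker, and 1095 CPM of summed meningeal fibroblast markers, for which the other 4 libraries of the group held at most 335 CPM and 91.0 CPM. Replicate 4 of MEC LDeep P2 and replicate 4 of LEC LDeep P45 had high values for long genes and held the highest values of their groups for each of the 8 α1 genes, but not for Cacna2d3. MEC LII P2 replicate 3 held 48.1 CPM of summed meningeal fibroblast markers, against 749 to 1383 CPM in replicates 2, 4 and 5 of its group. Its summed GABAergic neuron markers stood at 599 CPM, against 214 to 268 CPM in those 3. Results are given with all 64 libraries, and again without the 5 that stood apart wherever a call differs.

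On the rn6 assembly the genes were spread over 7 chromosomes. Cacna1g (chr10:82129506-82197848) and Cacna1h (chr10:14730941-14788617) shared chromosome 10, and Cacna2d3 (chr16:4871650-5795818) and Cacna1d (chr16:6112150-6404957) both lay on chromosome 16. Cacna1c (chr4:150641066-151269159) and Cacna2d1 (chr4:15710415-16130841) both lay on chromosome 4. The remaining genes were Cacna1a (chr19:25526751-25749550), Cacna1b (chr3:1740056-1924909), Cacna1e (chr13:71907093-72367987) and Cacna1i (chr7:121521787-121619300). The counted exons summed to between 3269 bases for Cacna2d3 and 9718 bases for Cacna1b. Reads that overlapped several genes were counted for each, and the only shared exon bases among the 10 genes were 146 of the 7871 bases of Cacna1h, which overlap Tpsg1.

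RefSeq promoter entries matched 7 of the 10 genes. Promoters are shown for Cacna1b, which fell with age, and Cacna2d1, which rose, because these 2 changed in opposite directions. Each is the 250 bases before an annotated RefSeq start on the GRCr8 assembly, 5′ to 3′ on the gene's strand, and capitals mark every match of GGGCGG, the GC box bound by Sp1-type factors, on either strand, with overlapping matches joined.
Cacna1b (GRCr8, chr3:27944286-27944535, minus strand): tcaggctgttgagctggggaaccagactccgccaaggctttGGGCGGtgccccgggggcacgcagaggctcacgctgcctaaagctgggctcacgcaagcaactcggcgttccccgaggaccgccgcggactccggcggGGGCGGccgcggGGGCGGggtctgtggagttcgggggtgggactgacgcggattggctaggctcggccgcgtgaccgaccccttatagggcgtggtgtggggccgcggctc
Cacna2d1 (GRCr8, chr4:20330148-20330397, minus strand): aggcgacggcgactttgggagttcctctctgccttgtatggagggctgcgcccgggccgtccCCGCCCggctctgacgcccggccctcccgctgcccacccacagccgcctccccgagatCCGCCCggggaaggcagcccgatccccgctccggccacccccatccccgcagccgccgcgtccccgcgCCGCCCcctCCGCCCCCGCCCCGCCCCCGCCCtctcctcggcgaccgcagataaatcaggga
The GC content was 72.0% for Cacna1b and 77.2% for Cacna2d1, against a median of 51.2% over 33469 windows of this length. The GC box matched 3 times in Cacna1b and 7 times in Cacna2d1, and 30.5% of all windows held at least 1 match. Neither window held TATAAA (12.9% of all windows, both strands) or TGACGTCA, the cAMP response element (1.59% of all windows), and CCAAT (34.0% of all windows) matched once in Cacna1b. Both windows were thus GC-rich and held GC boxes although the genes changed in opposite directions, which describes the letters and says nothing of the factors bound.

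Per kilobase of exon, the order of the genes changed between P2 and P45. Over all libraries the median CPM per kilobase was 68.6 for Cacna2d1, 64.6 for Cacna2d3, 48.2 for Cacna1e, 32.1 for Cacna1b, 20.6 for Cacna1a, 18.4 for Cacna1g, 15.9 for Cacna1i, 12.5 for Cacna1h, 11.3 for Cacna1c and 10.1 for Cacna1d. Pooled over ages and regions, some neighbours in this order did not separate. Cacna2d1 was above Cacna2d3 in 29 of 64 libraries, Cacna1g above Cacna1i in 30 and Cacna1h above Cacna1c in 35. By contrast, Cacna1e was above Cacna1b in 59 and Cacna1b above Cacna1a in 55. The near-even pairs changed order with age or region. Cacna2d1 was above Cacna2d3 in 18 of 18 LEC libraries at P2 and P9 and in 0 of 14 MEC libraries at P23 and P45. It was above in 3 of 18 MEC libraries at P2 and P9 and in 8 of 14 LEC libraries at P23 and P45. By median Cacna1g ranked 6 and Cacna1i 10 at P2, but Cacna1i was above Cacna1g in 16 of 16 libraries at P45. Cacna1h ranked 5 at P2 and 10 at P45, and Cacna1c 8 at each. At P2 the lowest gene was Cacna1i, at a median of 6.40 CPM per kilobase, and Cacna1h stood at 26.6, above 5 of the other genes. At P45 Cacna1h had the lowest median and Cacna1i stood at 24.0, above 4 of the other genes.

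Between the younger (P2 and P9) and the older (P23 and P45) samples, genes of every channel class except L-type were called, in both directions. Calls of the L-type genes depended on the libraries and the method, as given below. In that comparison 5 of the 10 genes rose (Cacna1a, Cacna1e, Cacna1i, Cacna2d1 and Cacna2d3) and 3 fell (Cacna1b, Cacna1g and Cacna1h). Age moved most of the transcriptome, since 81.6% of all genes tested were called, 41.0% rising and 40.6% falling, so that 8 of 10 is close to the share among all genes. The median LFC was 0.12 over the 10 genes and 0.01 over all genes.

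**Figure D1:**
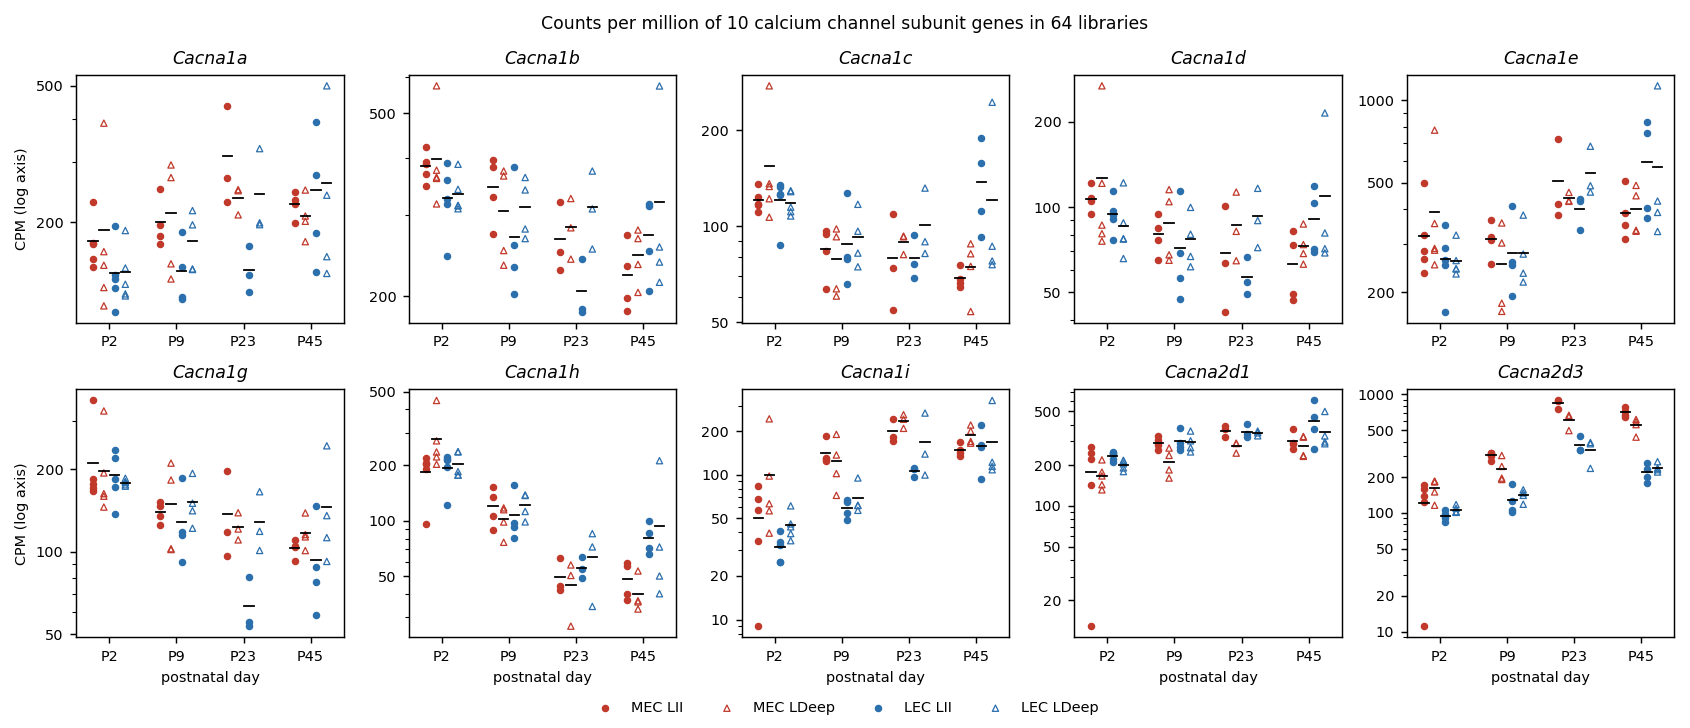
CPM of each gene on a log axis against postnatal day, 1 point per library, red for MEC and blue for LEC, filled circles for LII and open triangles for LDeep, with a black bar at each group mean. Cacna2d3 and Cacna1i rise and Cacna1h falls between P2 and P23 in all 4 combinations of region and layer, Cacna2d3 is higher in MEC at P23 and P45, and the lone low point of Cacna2d3 in MEC LII at P2, at 11.1 CPM, is MEC LII P2 replicate 1.

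Among the channels of synaptic terminals, the P/Q-type gene rose and the N-type gene fell. Cacna1a lay between 110 and 389 CPM in the 36 younger libraries (median 151) and between 125 and 500 CPM in the 28 older libraries (median 218). The ranges overlapped widely, and the mean was higher in the older group in 16 of 16 pairs of group means, which set each older age against each younger age within a region and layer. The LFC of Cacna1a was 0.43 (SE 0.11), BH adjusted p = 0.000322. Cacna1b ran the other way, from 202 to 573 CPM in younger libraries (median 344) and from 185 to 573 CPM in older libraries (median 250). Its LFC was -0.34 (SE 0.08, adjusted p = 7.08e-05), and it was lower in 15 of 16 pairs of group means. Within LEC alone the LFC of Cacna1b was -0.19 and was not called (adjusted p = 0.148).

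Within a library the ratio of Cacna1a to Cacna1b therefore shifted. On the per-kilobase scale Cacna1a stood at a median of 0.460 times Cacna1b at P2, 0.634 times at P9, 0.898 times at P23 and 0.949 times at P45. It exceeded Cacna1b in 0 of 36 libraries at P2 and P9 and in 9 of 28 at P23 and P45, namely 3 of 12 at P23 and 6 of 16 at P45. This ratio is a description of 2 genes measured in the same library and carries no test.

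The R-type gene had the highest median of the α1 genes per kilobase of exon, and it rose between P9 and P23. Cacna1e ranged from 170 to 779 CPM in younger libraries (median 270) and from 313 to 1129 CPM in older libraries (median 430), with an LFC of 0.70 (SE 0.11, adjusted p = 1.08e-07) and a higher older mean in 16 of 16 pairs. The step lay between P9 and P23, at an LFC of 0.75 (SE 0.17, adjusted p = 9.66e-05). From P2 to P9 the difference was -0.13 (SE 0.15), with a 95% interval of -0.42 to 0.16, and was not called.

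The L-type genes had the smallest age differences, and whether these were called depended on the libraries and on the method used. Cacna1c lay between 60.4 and 275 CPM in younger libraries (median 111) and between 54.0 and 244 CPM in older libraries (median 82.1). Its LFC was -0.20 (SE 0.09), adjusted p = 0.0535. Cacna1d lay between 47.5 and 268 CPM (median 87.2) and between 42.8 and 215 CPM (median 71.7), with an LFC of -0.20 (SE 0.11), adjusted p = 0.0969. In both genes the highest younger library was MEC LDeep P2 replicate 4 and the highest older library was LEC LDeep P45 replicate 4, which are among the 5 that stood apart. Without those 5, both genes were called, at -0.24 (adjusted p = 0.00249) for Cacna1c and -0.21 (adjusted p = 0.0255) for Cacna1d, and all 10 genes then differed between older and younger samples against 84.0% of all genes. With all 64 libraries, limma voom after TMM and quantile normalization called both as well, at -0.25 (adjusted p = 0.00627) and -0.24 (adjusted p = 0.0262), and 10328 of 12521 genes in all. Cacna1c was called in 33 of the 80 edgeR fits that left out a single library or a replicate number of an age, and Cacna1d in 7. MEC samples alone gave -0.44 for Cacna1c and -0.45 for Cacna1d, both called (adjusted p = 0.00127 and 0.0116). LEC samples alone gave 0.04 and 0.05, neither called (adjusted p = 0.795 and 0.787). Tested directly in edgeR, the age difference in MEC less that in LEC was -0.49 for Cacna1c (adjusted p = 0.14). It was -0.50 for Cacna1d (adjusted p = 0.223), and neither was called. MEC LDeep P2 replicate 4 and LEC LDeep P45 replicate 4 were kept in these fits, and their part was not tested.

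The T-type genes diverged. Cacna1h showed the largest fall of the 10 genes, Cacna1g fell less, and Cacna1i rose. Cacna1h lay between 76.5 and 448 CPM in younger libraries (median 166) and between 26.9 and 211 CPM in older libraries (median 54.0). Of the 28 older libraries, 24 were below the lowest younger one. The LFC of Cacna1h was -1.43 (SE 0.12, adjusted p = 1.74e-16), a fold of 2.69, lower in 16 of 16 pairs of group means. The decline came in 2 steps, with -0.91 (SE 0.15) from P2 to P9 and -1.08 (SE 0.17) from P9 to P23.

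Cacna1g lay between 92.0 and 357 CPM in younger libraries (median 172) and between 53.5 and 244 CPM in older ones (median 110). Its LFC was -0.58 (SE 0.10, adjusted p = 3.81e-07), again lower in 16 of 16 pairs. Cacna1i lay between 9.00 and 243 CPM in younger libraries (median 61.2) and between 94.0 and 326 CPM in older ones (median 163). Its LFC was 1.28 (SE 0.14, adjusted p = 3.77e-12), a fold of 2.43, higher in 16 of 16 pairs. Both extremes of Cacna1i in younger libraries belonged to libraries that stood apart, the 9.00 CPM to MEC LII P2 replicate 1 and the 243 CPM to MEC LDeep P2 replicate 4, and without the 5 libraries the LFC was 1.25.

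Cacna1i and Cacna1h exchanged places within libraries. Per kilobase, the ratio of Cacna1i to Cacna1h had a median of 0.249 at P2, where it ran from 0.112 to 0.648. It was 0.847 at P9 and 4.15 at P23 and 3.19 at P45. Cacna1h was above Cacna1i in all 20 libraries at P2, and Cacna1i was above Cacna1h in all 28 libraries at P23 and P45. At P9 Cacna1i was above in 7 of 16 libraries, and the regions differed. It was above in 7 of 8 MEC libraries (median ratio 1.51) and in 0 of 8 LEC libraries (median ratio 0.670).

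Both α2δ genes rose, with a larger fitted change in Cacna2d3 than in Cacna2d1. Cacna2d3 lay between 11.1 and 323 CPM in younger libraries (median 139) and between 181 and 890 CPM in older libraries (median 443), and 19 of 28 older libraries were above the highest younger one. The LFC was 1.54 (SE 0.10, adjusted p = 6.84e-20), a fold of 2.91, higher in 16 of 16 pairs. Cacna2d1 lay between 12.9 and 377 CPM (median 240) and between 233 and 603 CPM (median 325), with an LFC of 0.54 (SE 0.11, adjusted p = 2.58e-05). The lowest values of both genes came from MEC LII P2 replicate 1, and without the 5 libraries the LFCs were 1.51 and 0.46.

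**Figure D2:**
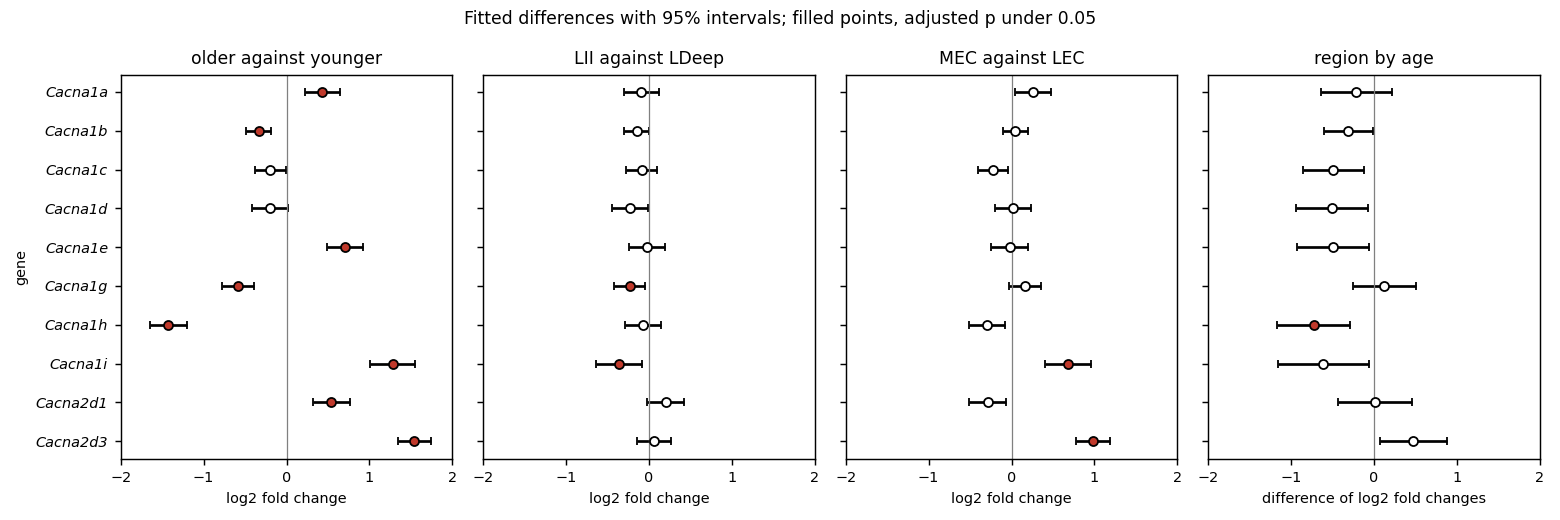
Fitted differences of the 10 genes with 95% intervals in 4 comparisons, the last being the change of the MEC against LEC difference from younger to older samples. Filled points passed BH adjusted p under 0.05. Age differences passed for 8 of the genes and run from -1.43 for Cacna1h to 1.54 for Cacna2d3. Layer differences run from -0.36 for Cacna1i to 0.20 for Cacna2d1, and the region differences of Cacna2d3 and Cacna1i stand clear of the rest.

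With all 64 libraries the calls in edgeR fell in the first 2 intervals, and a call of Cacna2d3 between P23 and P45 depended on the libraries, as given below. From P2 to P9, 3 genes rose (Cacna1i by 0.84, Cacna2d3 by 0.68 and Cacna2d1 by 0.49) and 5 fell (Cacna1h by 0.91, Cacna1c by 0.58, Cacna1g by 0.45, Cacna1d by 0.37 and Cacna1b by 0.23 on the log2 scale), with 63.4% of all genes called, 31.6% rising and 31.8% falling. Other long genes leaned the same way as the 5, because the median LFC of 625 other genes with at least 6000 bases of exon was -0.21 from P2 to P9 and 301 of them fell while 114 rose. Without the 5 libraries Cacna1d was no longer called (-0.24, adjusted p = 0.0661) and Cacna1a was (0.31, adjusted p = 0.0191). With the replicate number as a random block in limma voom, neither Cacna1b (-0.24, adjusted p = 0.0626) nor Cacna1d (-0.36, adjusted p = 0.0503) was called. In the fits that left out a library or replicate number, Cacna1b was called in 60 of 80 and Cacna1d in 76. From P9 to P23, 3 genes rose (Cacna2d3 by 1.41, Cacna1i by 0.89 and Cacna1e by 0.75) and 2 fell (Cacna1h by 1.08 and Cacna1g by 0.39), with 64.6% of all genes called, 32.5% rising and 32.1% falling. The count grew from 5 to 8 without the 5 libraries, when Cacna1a, Cacna1b and Cacna2d1 passed as well and 70.0% of all genes were called, and Cacna1g lost its call without P23 replicate 3 (-0.27, adjusted p = 0.157).

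Between P23 and P45 edgeR called none of the 10 genes, 1 had an unadjusted p under 0.05, and 3.85% of all genes were called. The gene with the smallest p was Cacna2d3, at -0.42 (SE 0.15, adjusted p = 0.123), lower at P45 in 4 of 4 combinations of region and layer. In the LEC its values were 340, 449 and 342 CPM in LII at P23 and 201, 264, 233 and 181 CPM at P45, without overlap. LEC LDeep gave 393, 384 and 238 CPM at P23 and 239, 271, 232 and 222 CPM at P45, and here the lowest P23 library fell inside the P45 range. In MEC LII the values were 890, 755 and 887 CPM at P23 and 672, 726, 641 and 780 CPM at P45, with overlap. Without the 5 libraries Cacna2d3 was called at -0.41 (adjusted p = 0.000805), as it was when MEC LII P2 replicate 1 alone was left out (adjusted p = 0.00067), and in LEC samples alone it was -0.64 (adjusted p = 0.00199).

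The P/Q-, N- and R-type genes together held a larger share of the α1 RNA at older ages, at a median of 51.9% at P2 and 62.6% at P45, although the share of the N-type gene was smaller at P45. Shares were taken of the summed CPM per kilobase of the 8 α1 genes, which removes any factor that raises all of them alike in a library, and they are described without a test. Cacna1e held a median of 22.2% at P2 and 24.5% at P9, which became 35.2% and 34.4% at the older ages. Cacna1h went from 14.6% at P2 to 3.35% at P23, and Cacna1i from 3.87% to 13.8%. The 3 T-type genes together held 32.5% at P2 (27.6% to 36.6%) and 25.7% at P45 (16.8% to 29.3%), and the 2 L-type genes 15.3% and 11.2%. Cacna1b held 20.1% at P2 and 14.4% at P45.

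**Figure D3:**
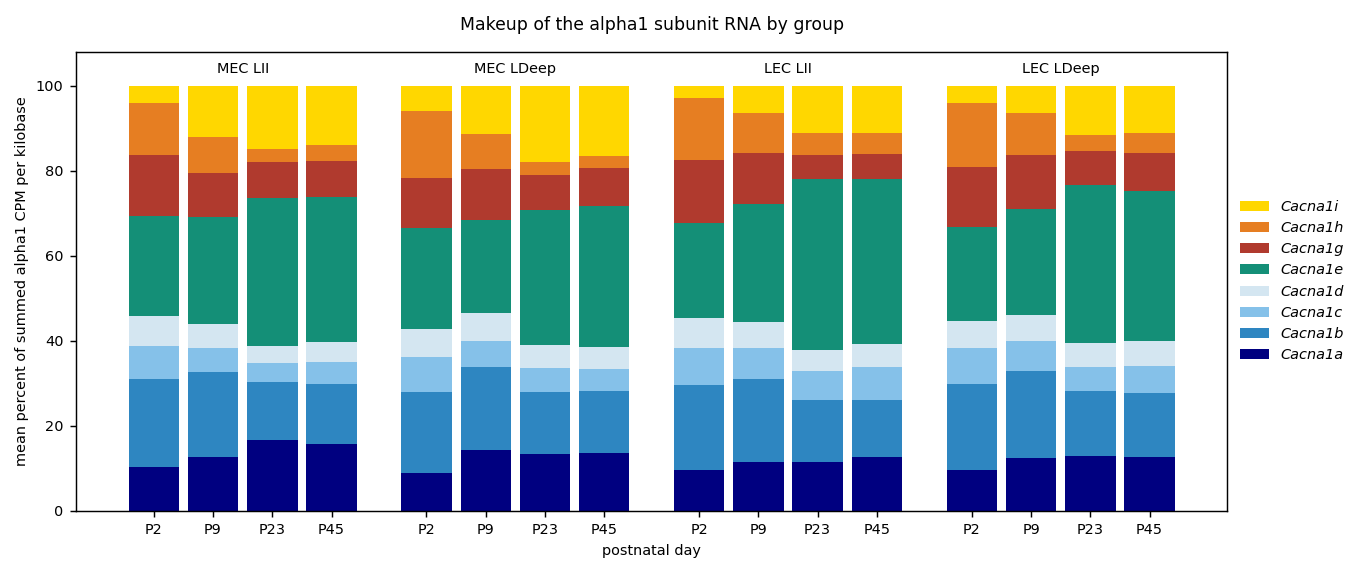
Stacked bars of the mean share of each α1 gene, in percent of the summed α1 CPM per kilobase of exon, for each of the 16 groups. In every combination of region and layer the green band of Cacna1e widens after P9, the orange band of Cacna1h narrows and the yellow band of Cacna1i widens.

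The region comparison asked which genes differ between MEC and LEC. Cacna2d3 and Cacna1i were higher in MEC, 2 of 10 genes against 15.4% of all genes called and 8.87% called higher. None was called lower with all libraries, no block and no long-gene covariate (described below). Cacna2d3 had an LFC of 0.98 (SE 0.10, adjusted p = 1.43e-10), a fold of 1.97. At P2 it lay between 83.3 and 118 CPM in LEC (median 102) and between 11.1 and 186 CPM in MEC (median 154), and the ranges overlapped through 2 MEC libraries, LII replicate 1 at 11.1 CPM and LDeep replicate 3 at 116 CPM. At P9 the LEC libraries lay between 101 and 177 CPM and the MEC libraries between 192 and 323 CPM, with no overlap. At P23 the ranges were 238 to 449 CPM in LEC and 495 to 890 CPM in MEC, and at P45 they were 181 to 271 CPM and 436 to 780 CPM, again apart at both ages.

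The difference of Cacna2d3 held in both layers, at 1.11 (SE 0.15, adjusted p = 1.09e-07) in LII and 0.85 (SE 0.15, adjusted p = 4.85e-05) in LDeep. In those comparisons 12.6% and 5.78% of all genes were called, 8.38% and 2.81% as higher in MEC, and Cacna2d3 and Cacna1i were the genes of the 10 called in each. Without the 5 libraries Cacna1a (0.41, adjusted p = 0.0131) and Cacna1g (0.33, adjusted p = 0.042) were also higher in MEC in LII, where 17.1% of all genes were then called. In LDeep Cacna2d1 was then lower in MEC (-0.35, adjusted p = 0.00493), with 7.53% of all genes called. With the replicate number as a block, Cacna1a (0.45, adjusted p = 0.0168) and Cacna1g (0.39, adjusted p = 0.0416) were called in LII, among 1981 of 12521 genes. Limma voom after TMM and quantile normalization called Cacna1a (0.42, adjusted p = 0.0278) and Cacna1g (0.38, adjusted p = 0.0393) in LII too, among 1706 genes. The difference of Cacna2d3 between the layers in this respect was 0.27 (SE 0.21, adjusted p = 0.629) and was not called. MEC had the higher group mean of Cacna2d3 in 7 of 8 pairs, namely 3 of 4 in LII and 4 of 4 in LDeep.

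Cacna1i was higher in MEC with an LFC of 0.68 (SE 0.14, adjusted p = 0.000259), in 7 of 8 pairs of group means. At P9 it lay between 48.7 and 94.9 CPM in LEC and between 72.0 and 190 CPM in MEC, and at P23 between 95.8 and 267 CPM and between 172 and 260 CPM. At P45 it lay between 94.0 and 326 CPM in LEC and between 136 and 220.3 CPM in MEC, and in LII the mean log2 CPM was then 7.24 in LEC and 7.21 in MEC. The ranges overlapped at every age. The difference was 0.69 (SE 0.20, adjusted p = 0.0137) in LII and 0.67 (SE 0.20, adjusted p = 0.0284) in LDeep. Leaving out P23 replicate 2 raised the adjusted p in LII to 0.0531, and in LDeep 14 of 80 libraries or replicate numbers left out ended the call.

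The other genes did not pass between regions with all libraries, no block and no long-gene covariate. With the replicate number as a block, Cacna1h was lower in MEC (-0.29, adjusted p = 0.0239) and Cacna1a was higher (0.27, adjusted p = 0.0407), so that 4 of 10 genes were called among 2288 of 12521. Without the block Cacna1h stood at -0.29 (SE 0.11, adjusted p = 0.0667). In the same fit Cacna2d1 stood at -0.29 (SE 0.11, adjusted p = 0.0823), lower in MEC in 7 of 8 pairs, and Cacna1a at 0.26 (SE 0.11, adjusted p = 0.102). Without the 5 libraries both were called, Cacna2d1 at -0.22 (adjusted p = 0.0044) and Cacna1a at 0.25 (adjusted p = 0.0378), so that 4 of 10 genes differed against 18.9% of all genes. Cacna2d1 was also called when MEC LII P2 replicate 1 alone was left out (-0.25, adjusted p = 0.00473) and Cacna1a when LEC LDeep P45 replicate 4 alone was (0.33, adjusted p = 0.0157). Per kilobase, Cacna2d1 was below Cacna2d3 in all 14 older MEC libraries, at a median ratio of 0.366, and above it in 8 of 14 older LEC libraries, at a median ratio of 1.05.

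Between layers few of these genes differed. Cacna1i and Cacna1g were lower in LII than in LDeep, 2 of 10 genes against 54.0% of all genes called and 30.5% called lower. Cacna1i lay between 9.00 and 243 CPM in LII (median 102) and between 35.0 and 326 CPM in LDeep (median 105), with an LFC of -0.36 (SE 0.14, adjusted p = 0.0259). Cacna1g lay between 53.5 and 357 CPM in LII (median 130) and between 92.1 and 327 CPM in LDeep (median 143), with an LFC of -0.23 (SE 0.10, adjusted p = 0.0383). The ranges overlapped almost wholly, with Cacna1i called in 68 and Cacna1g in 47 of the 80 fits that left out a library or replicate number. Cacna1i lost its call without the 5 libraries (-0.13, adjusted p = 0.19), whereas Cacna1g kept its own (-0.21, adjusted p = 0.0272) and Cacna2d1 was then higher in LII (0.30, adjusted p = 2.17e-05). With limma voom after TMM and quantile normalization neither Cacna1i (adjusted p = 0.136) nor Cacna1g (adjusted p = 0.162) was called. With the replicate number as a block both were, and Cacna1b as well (-0.15, adjusted p = 0.0497).

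Within LEC, Cacna1g was lower in LII at -0.46 (SE 0.14, adjusted p = 0.00627) and Cacna1b at -0.27 (SE 0.11, adjusted p = 0.0376), with 38.6% of all genes called and 21.2% called lower. Cacna1g in LEC LII at P23 read 80.9, 55.2 and 53.5 CPM and in LEC LDeep 119, 166 and 101 CPM, without overlap. At P2 the order was the other way, with a mean log2 CPM of 7.55 in LEC LII and 7.48 in LEC LDeep. Leaving out P23 replicate 2 ended the call of Cacna1g (-0.34, adjusted p = 0.0742). Cacna1b was called in 46 of 80 such fits and lost its call without the 5 libraries (-0.17, adjusted p = 0.108). Within MEC edgeR called none of the 10 genes, none had an unadjusted p under 0.05, and 40.8% of all genes were called. Without the 5 libraries MEC LII was higher in Cacna2d1 (0.42, adjusted p = 5.17e-05) and Cacna2d3 (0.28, adjusted p = 0.00353).

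Samples of LII and LDeep also differed in other cell types. Of 9 meningeal fibroblast markers 8 were higher in LII, and their sum lay between 29.1 and 1581 CPM in LII (median 951) and between 29.5 and 1095 CPM in LDeep (median 129). All 5 endothelial and all 5 mural markers, 5 of 6 astrocyte and 3 of 5 microglia markers were higher in LII. Lower in LII were 4 of 5 neuron markers and 4 of 6 oligodendrocyte markers. Of 4 glutamatergic neuron markers 2 were higher in LII and 1 lower, and of 6 GABAergic neuron markers 1 was higher and 1 lower. Between layers 54.0% of all genes were called. With age all 6 oligodendrocyte markers, 5 of 6 astrocyte markers and all 5 microglia markers rose. The summed oligodendrocyte markers went from a median of 121 CPM at P2 (94.6 to 176 CPM) to 4304 CPM at P23 (1355 to 16286 CPM). The summed astrocyte markers went from 910.2 to 3230.3 CPM and the summed microglia markers from 76.3 to 270.1 CPM between the same ages. Of 5 neuron markers 3 rose with age and 2 fell, and their median sum went from 5405 to 3722 CPM. Of 4 glutamatergic neuron markers 2 rose and 2 fell, with a median sum from 751 to 2361 CPM. Of 6 GABAergic neuron markers 4 rose and 1 fell, with a median sum from 430 to 712 CPM. Between regions 3 of 6 oligodendrocyte markers were higher in MEC and 2 of 5 microglia markers lower, with summed oligodendrocyte markers between 107 and 16286 CPM in MEC and between 94.6 and 7032 CPM in LEC. No marker of these lists was at 0 in all libraries, and the part of these cells in the layer, age and region results was not tested.

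Whether layer and region differences themselves changed was tested with interactions. A layer difference that differed between regions was called for none of the 10 genes in edgeR, where 1 had an unadjusted p under 0.05 (Cacna1g, 0.45, SE 0.19, adjusted p = 0.312) and 1.25% of all genes were called. Nor was a change of the layer difference with age called for any of them in edgeR, with 0 at an unadjusted p under 0.05 and 8.8% of all genes called, and the smallest p was that of Cacna1g at -0.39 (SE 0.19, adjusted p = 0.241). The region difference changed with age for 1 of 10 genes, Cacna1h, which moved down, against 4.38% of all genes called and 2.3% called in that direction.

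The medians of Cacna1h were close in the regions in younger samples and lower in MEC in older ones. In the younger samples it lay between 76.5 and 448 CPM in MEC (median 171) and between 80.9 and 236 CPM in LEC (median 166). In the older samples it lay between 26.9 and 62.9 CPM in MEC (median 43.3) and between 34.4 and 211 CPM in LEC (median 68.8), with some overlap. The change of the MEC against LEC difference was -0.73 (SE 0.22, adjusted p = 0.0482). It was -0.54 without the 5 libraries (adjusted p = 0.0439) and -0.61 with limma voom (adjusted p = 0.0852), and it was called in only 28 of 80 fits that left out a library or a replicate number. Of the 10 genes, 7 had an unadjusted p under 0.05 in this interaction, 6 of them negative, against 2080 of 12521 genes in all. The 625 other long genes had a median of -0.11 and all genes -0.02. High values in MEC LDeep P2 replicate 4 and in LEC LDeep P45 replicate 4 both move this interaction down, and their part in the count was not tested. Without the 5 libraries Cacna2d3 was called too, at 0.43 (adjusted p = 0.0133), a wider difference at older ages, as it was without MEC LII P2 replicate 1 alone.

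Deviations within groups were compared with those of other long genes. For each library the median deviation from the group mean was taken over the 625 long genes and over the 10 genes. MEC LDeep P2 replicate 4 stood at 0.49 for long genes and 0.86 for the 10 genes on the log2 scale, and LEC LDeep P45 replicate 4 at 0.51 and 1.13. These medians do not hold for each gene, since Cacna2d3, with 3269 bases of exon, stood at 222 CPM in the last library against 232 to 271 CPM in the rest of its group. When the deviation of the long genes was added to the fit as a covariate, chosen after the data were seen, the LFC of Cacna2d3, Cacna1h and Cacna1i between older and younger samples was 1.54, -1.46 and 1.29, all 10 genes were called for age and 6 of 10 for region. In that fit 10492 of 12521 genes in all were called for age and 2740 for region. The covariate has a mean near 0 in each group, so it narrows the spread and cannot remove a shift of whole groups.

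**Figure D4:**
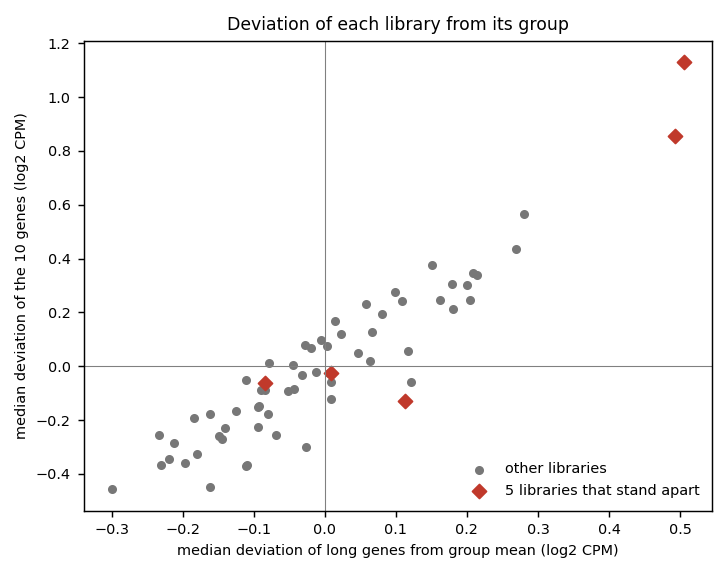
Median deviation of the 10 genes against that of 625 other genes with at least 6000 bases of exon, in log2 CPM from the group mean, 1 point per library, with red diamonds for the 5 libraries that stand apart. The points climb from lower left to upper right, up to 0.51 and 1.13 for LEC LDeep P45 replicate 4.

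Other subunit and partner genes were counted in the same fit, where the share of all genes called for age was 81.6%, 41.0% rising and 40.6% falling, and the counts of the lists are to be read against it. All 4 β subunit genes, which bind the α1 subunit from the cytoplasm, changed between older and younger samples, 3 rising and 1 falling. Cacnb4 rose by 1.89 (SE 0.07), Cacnb2 by 0.82 and Cacnb1 by 0.63, while Cacnb3 fell by 0.41. Of the 6 tested γ family genes, several of which act as AMPA receptor partners, 3 rose, led by Cacng3 (1.48) and Cacng2 (0.70), and Cacng4 fell by 1.30. Outside the 10 genes the α2δ gene Cacna2d2 fell by 0.80, and so did the α2δ-like Cachd1. Cacna1s, the skeletal muscle α1 gene, was tested at low counts and fell by 1.33, and Cacna1f, Cacna2d4, Cacng1 and Cacng6 did not pass the filter.

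Of 10 tested channel regulators 6 rose and 2 fell. Cabp1, a calcium sensor that binds these channels, rose by 1.70 and Stac2 by 2.13, whereas Rem2, a small G protein that inhibits them, fell by 1.44. Of 9 scaffold partners of the presynaptic active zone 5 rose and 2 fell, with Bsn at 1.83 and Rims1 at 1.13 against Erc1 at -0.91. Of 12 genes for calcium release and extrusion 10 rose and 2 fell, and Itpr1, the inositol trisphosphate receptor gene, had the largest change at 2.91 (SE 0.09). In the region comparison Cacnb4 was higher in MEC (0.55, adjusted p = 2.92e-08), and in the layer comparison 3 of 4 β genes and 6 of 9 scaffold genes were lower in LII, against 30.5% of all genes.

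**Figure D5:**
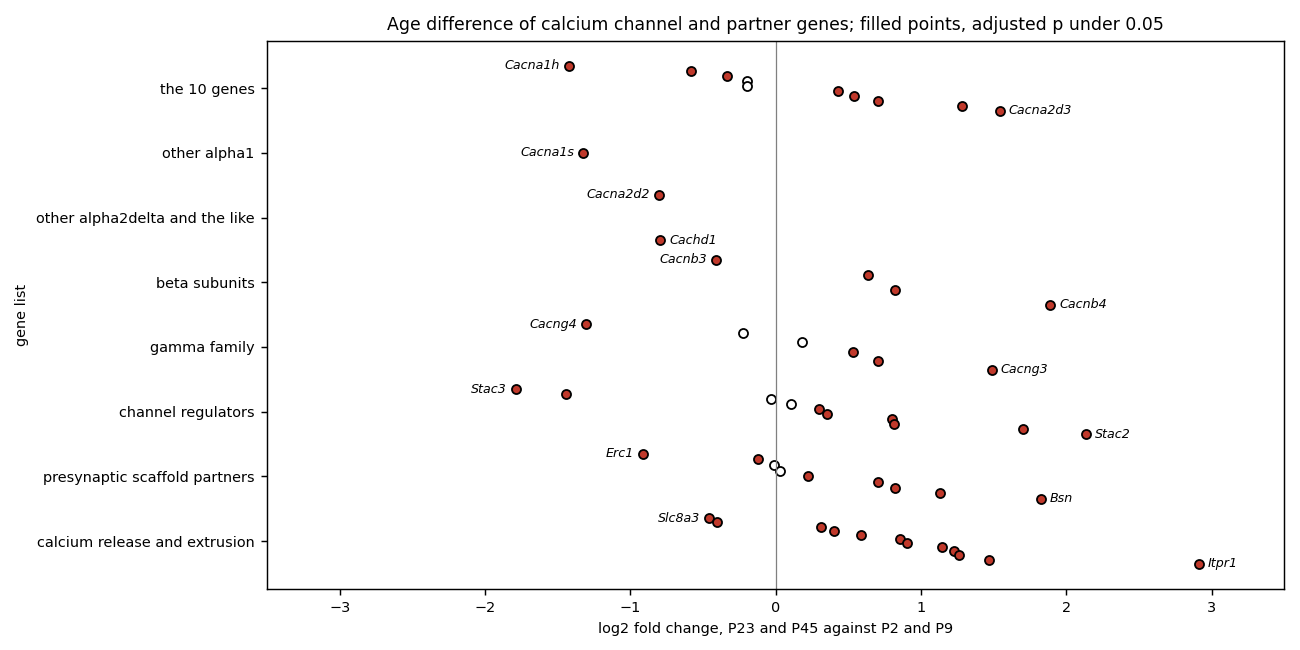
LFC of older against younger samples for the 10 genes and 7 lists of other calcium channel and partner genes, 1 point per gene, filled where BH adjusted p was under 0.05, with the lowest and highest gene of each list named. Each list of more than 2 genes has points on both sides of 0, and Itpr1 lies farthest right at 2.91.

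Likeness of pattern was measured as Pearson's r over the 16 group means of log2 CPM, which share age as a strong axis, and is a description. The closest genes to Cacna2d3 were Hrh2 (r = 0.97), Cabp7 (0.97) and Speg (0.96). Those closest to Cacna1i were Gabrb2 (0.96), Clstn1 (0.96) and Kcnh7 (0.95), and those closest to Cacna1g were Clvs1, Myo9a and Usp34 (0.93 each). Among the 10 genes, Cacna2d3 and Cacna1i were the most alike pair (0.90), followed by Cacna1b and Cacna1g (0.88), and Cacna1h and Cacna2d3 were the most opposite (-0.87).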

How the data were processed

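Raw counts per gene were deposited for each of the 64 samples. According to the methods, the authors trimmed reads with Trimmomatic 0.33, aligned them to rn6 with STAR 2.4.0 and counted read pairs by strand over RefSeq exons with featureCounts (Subread 1.4.6-p1). Groups were taken from the labels. Genes were filtered with filterByExpr and TMM scaled, and 1 mean per group was fitted to all samples with the quasi-likelihood test of edgeR 4.0.16 in R 4.3.3, for 13 contrasts, each adjusted over 12521 genes by Benjamini-Hochberg. Intervals are 1.96 SE. The script was tested on simulated counts. Plotted CPM have no prior count; the correlations used log2 CPM with a prior count of 2.

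The members and lists were chosen with earlier results of these data known. All 10 members were named, up to 4 genes per list by the smallest p for age, and the 3 genes of most similar pattern for the member with the largest difference in each of the age, layer, region and layer by age comparisons. Same-numbered samples of an age, which may share a rat according to the study's account of its miRNA samples, correlated in their deviations from group means by 0.134 on average over 96 pairs (55 over 0.1), and differently numbered samples by -0.043 over 300 pairs (59 over 0.1). The stated lists held further genes that are not analysed here (Stac, Tspoap1, Bzrap1, Ryr1 and Ryr3). Alternatives were RLE factors, other count filters, DESeq2 1.42.0, limma 3.58.1 voom with quantile normalization (as in the study's methods), a replicate block, sums per replicate number, subsets of samples and leaving out libraries. Omitting the 5 libraries and the long-gene covariate were chosen after seeing the data.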

Additional observations from a re-analysis of the deposited data

Results flagged for a closer look

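Single libraries far from their group were sought for each of the 10 genes in the 12 groups of 4 or 5 samples, 120 checks in all, and 13 were found. Chance alone gives about 1 in 20 groups. The last number for each gene is the gap to the nearest library as a share of the group's range. Both were taken in log2 CPM, while the values beside it are CPM.

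In the library labelled MEC LII P2 replicate 1, Cacna2d3 (11.1 CPM against 125 to 171 in the other libraries, 0.884787), Cacna2d1 (12.9 against 142 to 273 CPM, 0.784331) and Cacna1h (95.9 against 190 to 220 CPM, 0.823774) were lowest and Cacna1g (357 against 166 to 184 CPM, 0.86889) was highest. The same library had 48.0 CPM of forebrain markers, and the part of this in the 4 genes was not tested.

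In LEC LDeep P45 replicate 4, Cacna1c (244 against 75.8 to 86.5 CPM, 0.886639), Cacna1d (215 against 69.0 to 81.1 CPM, 0.857801) and Cacna1i (326 against 108 to 122 CPM, 0.891368) were highest. In MEC LDeep P2 replicate 4, Cacna1b (573 against 317 to 376 CPM, 0.714527) and Cacna1c (275 against 107 to 136 CPM, 0.745149) were highest. Long genes were high in both libraries, and their part was not tested.

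LEC LII P2 replicate 1 was lowest in Cacna1c (87.5 against 125 to 135 CPM, 0.827306) and Cacna1h (122 against 196 to 220 CPM, 0.804556). Cacna1i was highest in LEC LDeep P9 replicate 3 (94.9 against 56.8 to 61.4 CPM, 0.846694) and in MEC LII P9 replicate 2 (184 against 124 to 130 CPM, 0.883061).

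The MEC against LEC difference of Cacna1h changed between younger and older samples by -0.73 on the log2 scale (edgeR, adjusted p = 0.0482).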

How the results depend on the processing

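No called value changed direction under any alternative run. The counts below are of the 10 genes called. After each comparison the brackets hold the counts of the edgeR fit over all samples (the main fit), for the 10 genes and for all genes. Later brackets hold the genes called in all in the fit named. The main, RLE, voom and covariate fits tested 12521 genes, and the fit without the 5 libraries 12472. MEC alone had 12341, LEC alone 12255, no filter 15969 and at least 10 counts 9688. For older against younger (8, all genes 10215), limma voom (10328), the long-gene covariate (10492), MEC alone (9169) and omission of the 5 libraries (10479) gave 10 each. No filter gave 9 (10645) and LEC alone 7 (9248). From P2 to P9 (8, all genes 7937), MEC (6301) or LEC (6107) samples alone gave 5 each. From P9 to P23 (5, all genes 8090), MEC alone gave 3 (6261) and omission of the 5 libraries 8 (8725). Between P23 and P45 (0, all genes 482), omission of the 5 libraries (866) and LEC alone (224) gave 1 each. For LII against LDeep (2, all genes 6767), the long-gene covariate gave 4 (7449), and RLE factors (6498) and no filter (6504) gave 1. At least 10 counts (4353) and limma voom (6689) gave 0. Within MEC (0, all genes 5112), omission of the 5 libraries gave 2 (6483) and the covariate 1 (5997). Within LEC (2, all genes 4835), the covariate gave 4 (5690). Omission of the 5 libraries (5784), RLE (4530), no filter (4426) and at least 10 counts (2892) gave 1 each. So did DESeq2 (4686 of 13451) and voom (4602). For MEC against LEC (2, all genes 1928), omission of the 5 libraries gave 4 (2352) and the covariate 6 (2740). In LII (2, all genes 1582), omission of the 5 libraries (2129), DESeq2 (1693 of 13148) and voom (1706) gave 4. The covariate gave 6 there (2640). For layer by region (0, all genes 156), the covariate gave 2 (529). For layer by age (0, all genes 1102), it gave 3 (1616). For region by age (1, all genes 548), omission of the 5 libraries gave 2 (771) and the covariate 5 (1013). No filter (488), voom (568), LII alone (209 of 12190) and LDeep alone (79 of 12144) gave 0. The causes were not tested.

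Leaving out single libraries or replicate numbers gave 8 to 10 genes for age, 6 to 8 from P2 to P9, 4 to 6 from P9 to P23, 0 to 1 from P23 to P45, 0 to 4 between layers, 0 to 2 within MEC and within LEC, 2 to 4 between regions, 1 to 4 in LII, 1 to 3 in LDeep, 0 to 0 for layer by region and layer by age, and 0 to 2 for region by age.

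The labels do not say whether the replicate numbers pair the samples, so both fits are given. A fixed replicate block raised the count between regions to 4 (all genes 2288), and to 4 in LII (all genes 1981). With it 3 genes were called between layers (all genes 7073), and with a random block 6 from P2 to P9 (all genes 7241). The block changed no other call of the 10 genes in the comparisons it was run for. Sums per replicate number gave 8 genes for age (10122 of 13092 genes in all) and 6 from P2 to P9 (7076). They gave 4 from P9 to P23 (7305), where 1 gene that fell was called against 2 in the main fit. From P23 to P45 the sums gave 0 (60). The lowest count of any of the genes in a library was 90.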
